A study of Homo sapiens with 6 samples.

Results

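The genes described here are the ligands and receptors of axon guidance: the semaphorins with their plexin and neuropilin receptors, the ephrins with the Eph receptors, the Slits with the Robos, and the netrins with DCC, neogenin and the UNC5 receptors. They were taken by symbol from the annotation of the array, with antisense genes left out and 1 probe set per gene, the brightest over all arrays. That gave 70 genes of the 19775 measured. The spelling of the rule also took 3 genes that are not known as guidance receptors or ligands, UNC50, UNC5CL and the non-coding SLIT2-IT1, so 67 are guidance genes proper. The 70 genes have 174 probe sets of their own, and 20 genes have only 1.

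Transcripts were measured on 6 Affymetrix GeneChip arrays of the 1833 subline of MDA-MB-231, a human breast cancer line, with 3 arrays of control cells and 3 labelled S153E-RKIP. RKIP, the product of PEBP1, is an inhibitor of the Raf kinase that starts the MEK and ERK cascade, and the S153E form is by the series' account the more potent one. The mutant was delivered by lentiviral transduction and those cells were selected and kept in puromycin at 0.5 µg/ml. No puromycin is recorded for the control, which is called a vector control, so drug and mutant cannot be told apart. All cells grew in medium with 10% serum. The labels call the replicates biological without saying how they were made or whether a population was 1 clone or a pool. The p-values therefore measure spread between samples, some of which may be technical. In such bulk RNA, fewer cells with a transcript and less of it per cell cannot be told apart. The treated samples are titled S153E-RKIP, but their source name gives a short hairpin RNA against HMGA2. Neither gene settled it, since PEBP1 differed by -0.093 (SE 0.058, limma adjusted p = 0.473) and HMGA2 by -0.023 (SE 0.058, adjusted p = 0.882), and every direction below rests on the title. All values are log2 RMA signals, all differences are S153E-RKIP minus control on that scale, and a gene was called at a limma adjusted p under 0.05 over all 19775 genes.

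Guidance cues were first described in growing axons, which they attract or repel, and the same molecules steer migrating cells and blood vessels and shape epithelia. Semaphorins act through plexins, with neuropilins as co-receptors for the secreted class 3 members, ephrins signal through Eph receptor tyrosine kinases between touching cells, Slits act through Robo receptors, and netrins act through DCC, neogenin and UNC5 receptors. Several of them, among them SLIT2, the ephrins and NTN4, have been studied in breast tumours for their part in migration and vessel growth.

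As a check of the cells, all 5 defining markers of MDA-MB-231 (VIM, CD44, AXL, CAV1 and MSN) lay above the median level of all genes, which was 6.64. Of 7 luminal and HER2 markers 5 lay above it, so that list does not tell these cells from luminal ones. KRT18, EPCAM, GATA3, ERBB2 and, at 6.65, ESR1 lay above the median level, and PGR and CDH1 below it. Of 10 neuron markers 1 was above it, as were 2 of 8 endothelial, 0 of 6 blood cell and 1 of 7 fibroblast and bone cell markers, and no marker of any of these lists was called. The mean of the neuron list ran from 5.84 to 5.90 in control and from 5.81 to 5.88 in the other group, that of the endothelial list from 5.71 to 5.85 and from 5.79 to 5.85, that of the blood cell list from 5.20 to 5.25 and from 5.32 to 5.41, and that of the fibroblast and bone cell list from 5.77 to 5.84 and from 5.78 to 5.90. The blood cell means did not overlap between the groups, and the part of other cells in the results was not tested. S153E-RKIP replicate 1 stood apart from replicates 2 and 3 of its group on the second principal component of all genes (21.6% of the variance) and values without it are given where it changed a call or moved a difference of at least 0.10 in a named gene by over 1.5 times.

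Signal over background was not measured on these arrays. As a guide, the 82 olfactory receptor genes measured, which breast cells are not known to use, had a median level of 4.60 and a 95th percentile of 6.02. Of the 70 genes 32 had a mean above the median of all genes, and 24 were at or below that percentile. The dim group included DCC, UNC5A, UNC5C, UNC5D, ROBO2, EPHA3, EPHA5, EPHA6, EPHA7, SEMA3D, SEMA3E and SEMA3G. Probe sets differ in how well they bind, so a level is set against this guide and not against that of another gene.

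Of the 70 genes 3 were called. NTN4, a netrin of basement membranes that binds laminin, fell, while SLIT2, the secreted repellent that binds Robo receptors, and EPHB1, a receptor for ephrin-B ligands, rose. That is 4.29% of the genes, 2 higher and 1 lower, beside 1.9% of all genes called in either direction, 0.688% higher and 1.21% lower. An unadjusted p under 0.05 was found for 15 of the 70, or 21.4% beside 15.7% of all genes; 12 were higher (7.75% of all genes) and 3 lower (7.92% of all genes). The groups did not overlap for 16 of the 70, or 22.9% beside 20.1% of all genes; 12 were higher (9.31% of all genes) and 4 lower (10.8% of all genes). The share over both directions, 22.9%, is near that of all genes and is no result about the guidance genes as a group. Among those 16 genes more were higher than lower, unlike among all genes, and that split was not tested. The median difference was 0.040, beside 0.010 for all genes, and 46 of the 70 (65.7%) had a difference above 0, beside 53.6% of all genes.

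**Figure D1:**
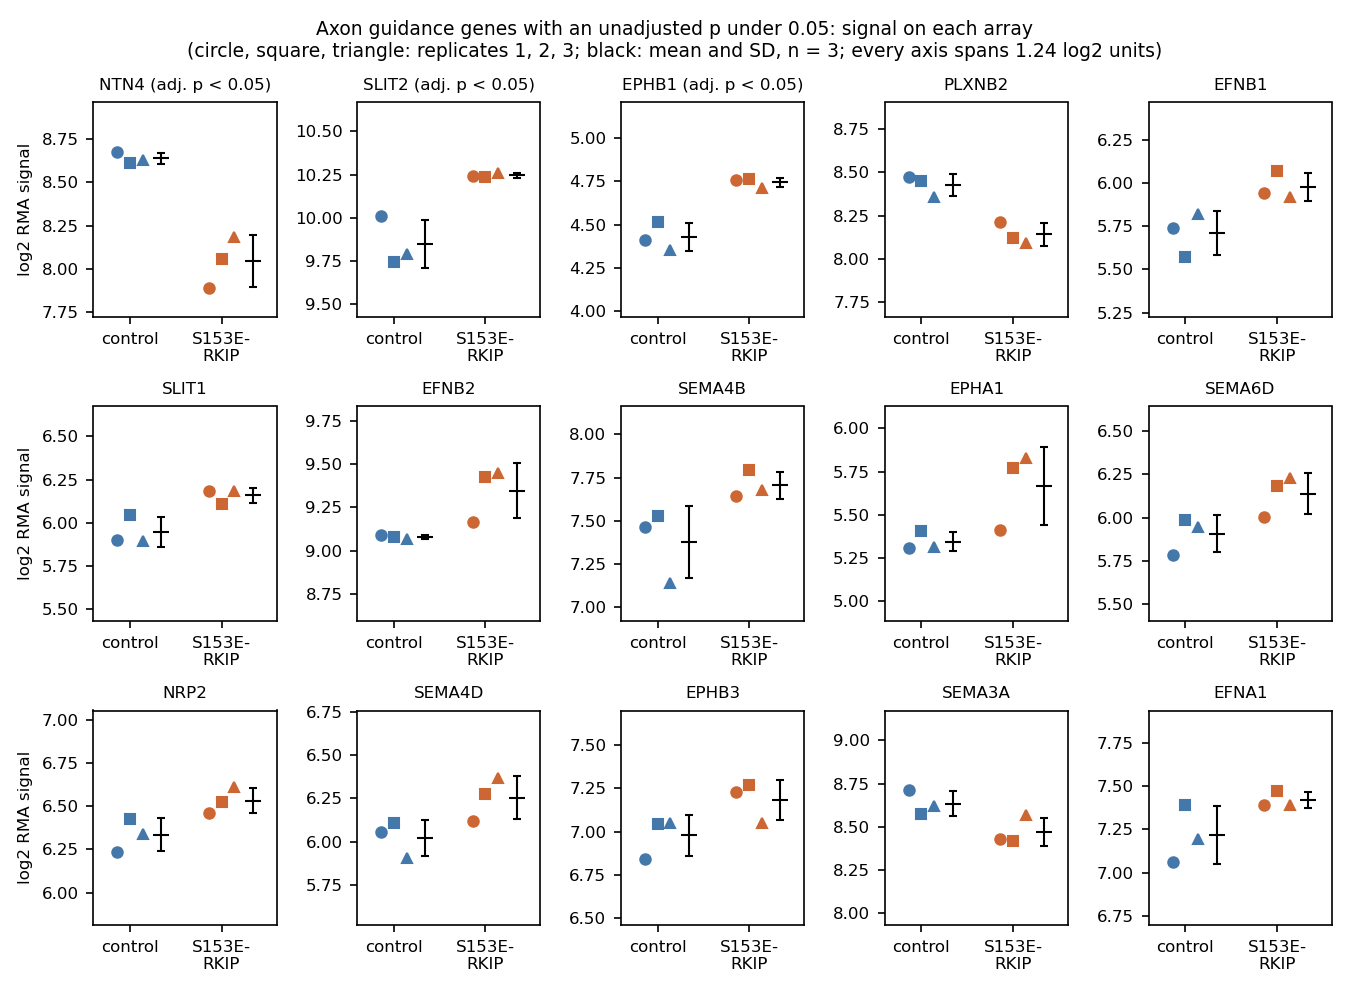
Log2 RMA signal of the 15 genes with an unadjusted p under 0.05, ordered by p, on each array (control blue, S153E-RKIP orange; circle, square and triangle are replicates 1, 2 and 3; black marks the mean and SD, n = 3). NTN4 lies lower and SLIT2 and EPHB1 higher on all 3 S153E-RKIP arrays than on any control array, and only in the panel of EFNA1 do the groups touch.

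For NTN4 the control arrays read 8.67, 8.61 and 8.63 and the S153E-RKIP arrays 7.89, 8.06 and 8.18, here and below in the order of replicates 1 to 3. The controls were nearly equal, and the S153E-RKIP arrays were spread more widely with every one of them lower. The fall was 1.51-fold (log2 difference -0.59, SE 0.079, 95% confidence interval -0.77 to -0.41, limma adjusted p = 0.00853). NTN4 has 1 probe set on the array, so no second one could be set beside it. Leaving out 1 array kept the direction, with differences between -0.66 and -0.52. The call was lost without control replicate 1 (adjusted p = 0.0721), control replicate 3 (0.0557) or S153E-RKIP replicate 2 (0.0560), and kept in the other 3 cases. The other netrin measured, NTN1, the classical attractant of axons, had a difference of 0.033 (95% confidence interval -0.15 to 0.22, adjusted p = 0.874).

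SLIT2 had a level of 10.01, 9.74 and 9.79 on the control arrays and of 10.24, 10.24 and 10.26 on the S153E-RKIP arrays. The 3 arrays of the second group were nearly equal and lay above all controls, of which replicate 1 was the highest. The rise was 1.32-fold (log2 difference 0.40, SE 0.076, 95% confidence interval 0.22 to 0.57, limma adjusted p = 0.0419). SLIT2 has 3 probe sets, and all of them were higher in every S153E-RKIP array than in any control array. The second read 9.50, 9.44 and 9.64 in control and 10.01, 10.06 and 9.98 in S153E-RKIP, and the dimmest 8.31, 8.27 and 8.45 against 8.78, 8.76 and 8.89. On both, replicate 3 was the highest control, while on the brightest one it was replicate 1. In a fit of all 54613 probe sets these 2 were called, with differences of 0.49 (SE 0.070, adjusted p = 0.0148) and 0.47 (SE 0.072, adjusted p = 0.0199), and the brightest was not (adjusted p = 0.0628). With the mean of the 3 probe sets the rise was 0.45 (adjusted p = 0.00460). On the brightest probe set alone the call was lost without control replicate 2 (adjusted p = 0.168), control replicate 3 (0.184) or S153E-RKIP replicate 1, 2 or 3 (0.100, 0.142 and 0.111), and the difference stayed between 0.35 and 0.48.

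EPHB1 had a level of 4.41, 4.52 and 4.35 in control and of 4.75, 4.76 and 4.71 in S153E-RKIP. The groups did not overlap, and the rise was 1.25-fold (log2 difference 0.32, SE 0.062, 95% confidence interval 0.18 to 0.46, limma adjusted p = 0.0448). The 6 values lie near the median level of the olfactory receptor genes. The 2 dimmer probe sets of EPHB1 had differences of 0.0014 and -0.049, neither past an unadjusted p under 0.05. No call was left when any 1 of the 6 arrays was dropped (adjusted p = 0.191, 0.0776 and 0.188 without control replicates 1, 2 and 3, and 0.0971, 0.141 and 0.0907 without those of S153E-RKIP). The mean of its 3 probe sets gave a difference of 0.090 (adjusted p = 0.389).

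**Figure D2:**
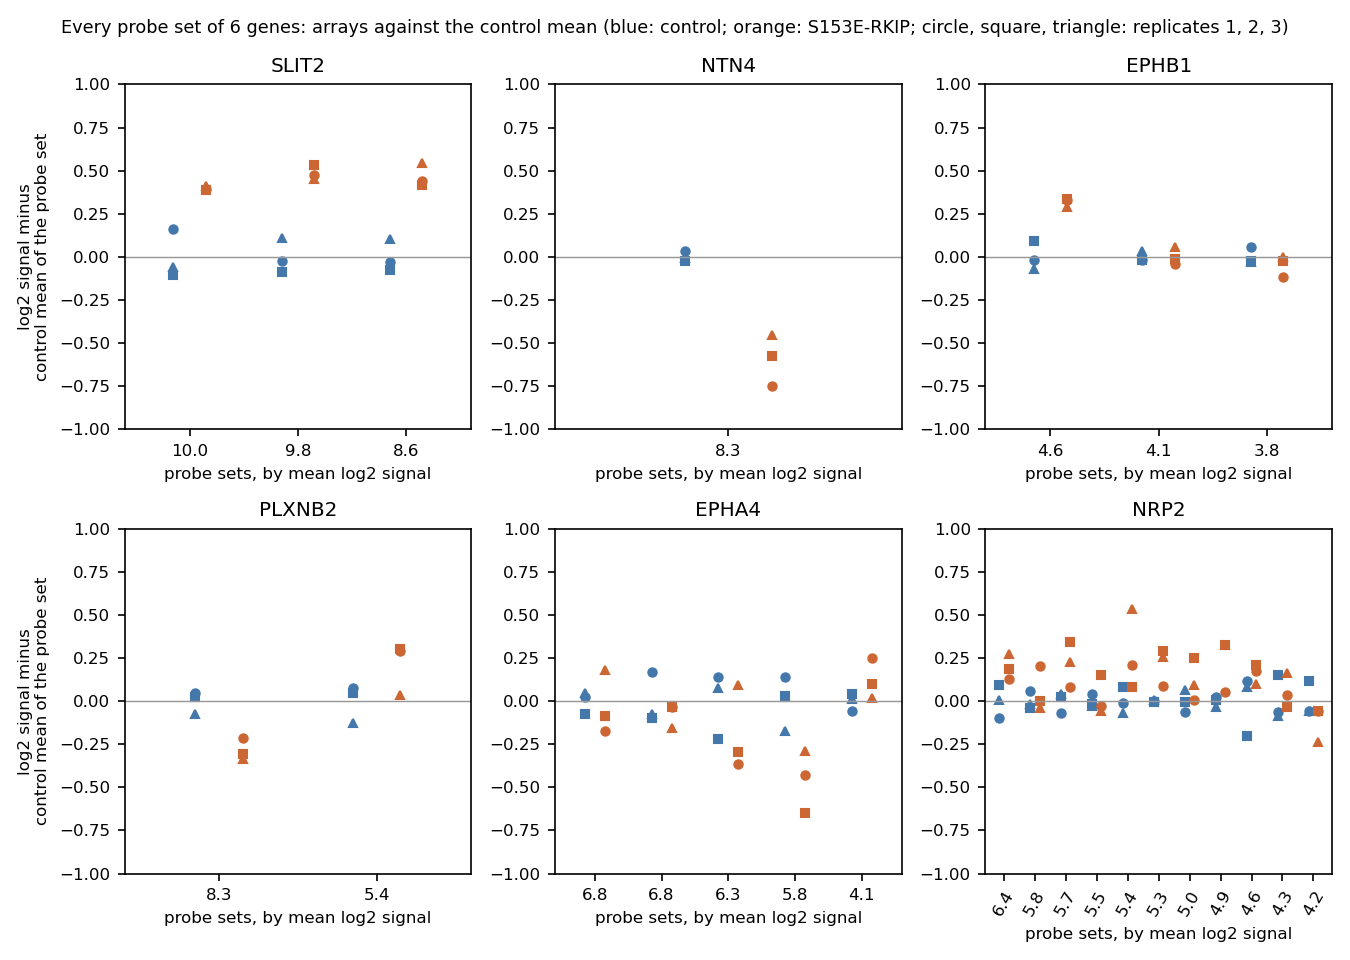
Log2 signal on each array minus the control mean of the same probe set, for every probe set of 6 genes, ordered by mean log2 signal (control blue, S153E-RKIP orange; circle, square and triangle are replicates 1, 2 and 3). The 3 probe sets of SLIT2 move alike, only the brightest of EPHB1 shifts, and the 2 of PLXNB2 go opposite ways.

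The sequences before the start sites of the 3 called genes are shown as the genes on which the result turns, although the arrays do not measure promoters. Each is the 250 bases before a RefSeq start site, read along the transcript (GRCh38.p14: SLIT2 at chr4:20251655-20251904, plus strand; NTN4 at chr12:95791156-95791405, minus strand, the upstream one of its 2 listed starts; EPHB1 at chr3:134795010-134795259, plus strand). Capitals mark matches, on either strand, to 5 motifs: TGANTCA (AP-1), CCGGAA (ETS), GGGCGG (SP1), TATAA (TATA box) and the 10-base NF-kB consensus.
SLIT2: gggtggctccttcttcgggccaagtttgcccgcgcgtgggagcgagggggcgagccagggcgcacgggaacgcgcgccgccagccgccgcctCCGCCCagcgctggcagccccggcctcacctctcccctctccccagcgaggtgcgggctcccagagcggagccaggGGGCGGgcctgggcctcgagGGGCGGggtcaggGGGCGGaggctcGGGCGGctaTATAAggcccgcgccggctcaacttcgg
NTN4: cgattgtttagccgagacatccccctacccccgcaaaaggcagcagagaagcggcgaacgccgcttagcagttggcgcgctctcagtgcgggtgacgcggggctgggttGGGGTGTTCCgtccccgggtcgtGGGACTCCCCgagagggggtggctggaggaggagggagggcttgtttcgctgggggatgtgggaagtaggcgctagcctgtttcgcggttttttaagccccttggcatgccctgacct
EPHB1: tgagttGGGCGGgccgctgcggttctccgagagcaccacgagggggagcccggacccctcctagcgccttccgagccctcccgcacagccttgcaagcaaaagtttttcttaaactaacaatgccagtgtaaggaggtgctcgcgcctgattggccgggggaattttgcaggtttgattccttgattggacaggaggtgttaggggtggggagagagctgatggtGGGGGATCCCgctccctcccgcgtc

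SLIT2 holds 5 SP1 matches, 4 of them within 82 bases of the start, and a TATAA match 28 to 24 bases before it. NTN4 holds 2 NF-kB matches, at 141 to 132 and 118 to 109 bases before the start, and EPHB1 holds 1 SP1 match and 1 NF-kB match. No AP-1 or ETS match lies in the 3 windows. Of all 35116 windows of this length, 42.6% hold the SP1 motif, 18.9% TATAA, 14.5% the ETS motif, 9.96% the NF-kB consensus and 6.57% the AP-1 motif. Over the 91 windows found for 60 of the 70 genes the shares were 70.3%, 8.79%, 6.59%, 13.2% and 1.1% in the same order. A match is a string of letters and not a measured site. Taking 1 window per gene, 38 of these 60 (63.3%) had a GC content over 50% with an observed to expected CpG ratio over 0.6. That share was 44.7% over all 27305 genes in the promoter table, a wider set than the 19775 measured on the arrays. It was 60.7% for the 28 genes above the median level and 65.6% for the 32 below it.

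Beside SLIT2, the other Slits were SLIT1 and SLIT3, also ligands of the Robos. SLIT1 had a level of 5.90, 6.05 and 5.90 in control and of 6.18, 6.11 and 6.19 in S153E-RKIP, a difference of 0.21 (SE 0.064, unadjusted p = 0.00992, limma adjusted p = 0.173) with groups that did not overlap. SLIT3 had a difference of 0.061 (adjusted p = 0.711). The dimmer probe sets did not repeat these differences, with -0.0052 for that of SLIT1 and -0.026 and -0.050 for the 2 of SLIT3, and the mean of its probe sets gave SLIT1 0.10 (adjusted p = 0.470). The intronic transcript SLIT2-IT1 lay at a level between 3.61 and 3.80 on all arrays, in the range of the olfactory receptor genes, and differed by 0.12 (adjusted p = 0.416).

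None of the 4 Robo receptors was called, nor had any an unadjusted p under 0.05. ROBO1, a receptor of SLIT2, had a level of 9.75, 9.77 and 9.70 in control and of 9.73, 9.89 and 9.90 in S153E-RKIP, with overlapping groups and a difference of 0.10 (95% confidence interval -0.045 to 0.25), or 0.16 without S153E-RKIP replicate 1 (adjusted p = 0.241). ROBO4, known from endothelium, had a difference of 0.072 on its brightest probe set, where the groups did not overlap, and of -0.20 on its dimmer one (unadjusted p = 0.0308, adjusted p = 0.325 in the fit of all probe sets), so its probe sets disagree. ROBO2 and ROBO3 had differences of -0.11 and -0.050. SLIT2 was called and its receptors were not; the difference between these effects was not tested.

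Of the netrin receptors none was called and none had an unadjusted p under 0.05. UNC5B, which mediates repulsion, differed by 0.14 (95% confidence interval -0.076 to 0.35), and NEO1, neogenin, by 0.021 (-0.15 to 0.19). DCC, UNC5A and UNC5C, at 0.069, 0.082 and -0.12, had levels in the range of the olfactory receptor genes. UNC5D, also in that range, read 4.56, 4.28 and 4.26 in control and 4.13, 4.26 and 4.19 in S153E-RKIP, so the groups barely part. Its difference was -0.18 (adjusted p = 0.375), with control replicate 1 well above the other arrays. UNC50, a Golgi protein, and UNC5CL, a relative of the UNC5 receptors, differed by -0.033 and 0.076 (adjusted p = 0.802 and 0.621).

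**Figure D3:**
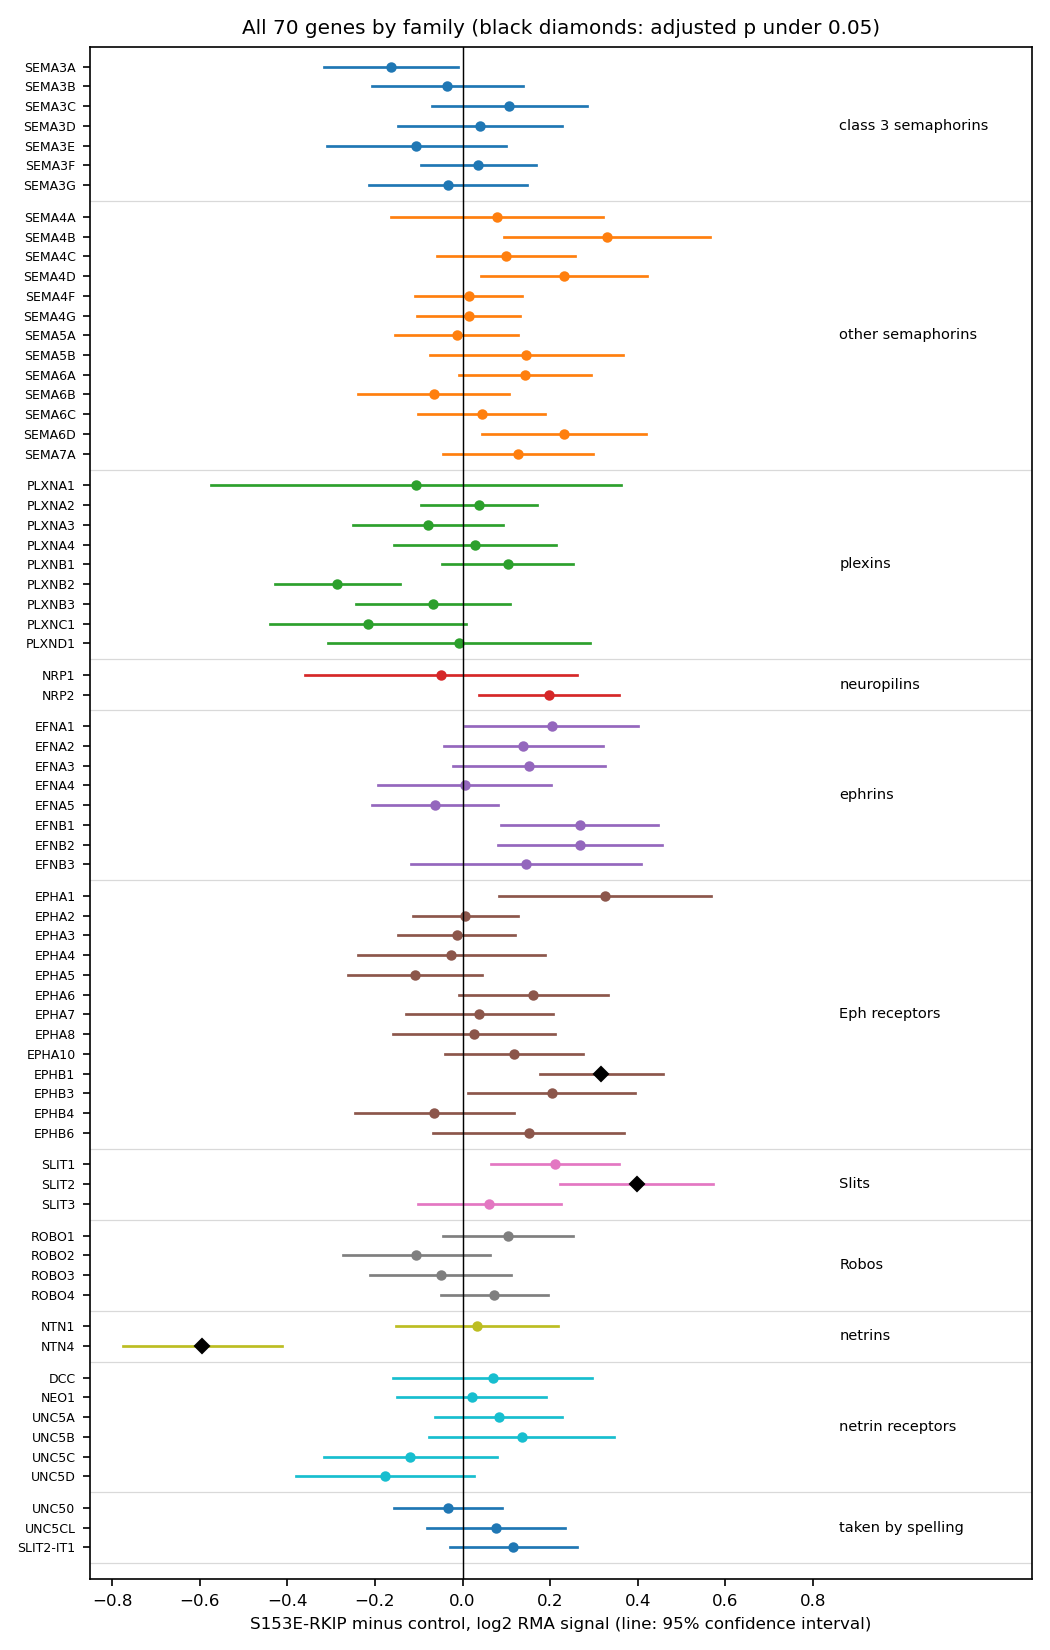
Difference of each of the 70 genes (S153E-RKIP minus control, log2 RMA signal) with its 95% confidence interval, grouped by family; black diamonds are the 3 called genes. The intervals of NTN4, SLIT2 and EPHB1 lie farthest from 0, and 55 of the 70 genes have an unadjusted p of 0.05 or more.

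Among the semaphorins, 0 of 20 were called, with 4 at an unadjusted p under 0.05, beside 15.7% of all genes. SEMA4B, a membrane-bound semaphorin, had the highest difference of them, with a level of 7.46, 7.53 and 7.14 in control and of 7.65, 7.79 and 7.68 in S153E-RKIP (0.33, SE 0.10, unadjusted p = 0.0115, limma adjusted p = 0.183). The groups did not overlap, and control replicate 3 lay below the other controls. SEMA4D, the ligand of PLXNB1 studied in vessel growth and in bone, read 6.05, 6.11 and 5.90 against 6.12, 6.27 and 6.37. Its difference was 0.23 (SE 0.083, adjusted p = 0.232), while its dimmer probe set had one of -0.18 (unadjusted p = 0.0427). SEMA6D, a transmembrane ligand of PLXNA1, differed by 0.23 (SE 0.082, limma adjusted p = 0.229), with the groups apart. Its mean level was 6.02, at the olfactory percentile. All 5 of its probe sets had a difference above 0. The dimmer ones had mean levels of 3.66 to 4.76, in the range of the olfactory receptor genes, and none had an unadjusted p under 0.05.

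SEMA3A, the secreted repellent that binds NRP1, alone among the semaphorins was lower with an unadjusted p under 0.05. It had a level of 8.71, 8.57 and 8.62 in control and of 8.43, 8.42 and 8.57 in S153E-RKIP, with S153E-RKIP replicate 3 just below the lowest control. The difference was -0.16 (SE 0.067, adjusted p = 0.295) on the brightest probe set and -0.26 on the second (adjusted p = 0.295), and the dimmest had one of 0.098. SEMA3C, another secreted member studied in breast tumours, differed by 0.11 (95% confidence interval -0.070 to 0.28) and SEMA7A, the lipid-anchored ligand of PLXNC1, by 0.13 (-0.045 to 0.30). Without S153E-RKIP replicate 1 they differed by 0.17 and 0.077 (adjusted p = 0.312 and 0.651). The 7 class 3 semaphorins had a median of -0.033 and ran from -0.16 to 0.11, while the 13 others had a median of 0.099 and ran from -0.066 to 0.33. A difference above 0 was found for 3 of the 7 (42.9%) and 11 of the 13 (84.6%), beside 53.6% of all genes. SEMA3B also has a probe set that the annotation gives to several genes, which was left out and differed by 0.020 (adjusted p = 0.930 in the fit of all probe sets).

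Of the 9 plexins, the receptors of the semaphorins, none was called. PLXNB2, a receptor of class 4 semaphorins, came nearest, with a level of 8.47, 8.45 and 8.35 in control and of 8.21, 8.12 and 8.09 in S153E-RKIP. The groups lay apart, with a difference of -0.29 (SE 0.062, 95% confidence interval -0.43 to -0.14, limma adjusted p = 0.0686). It passed the threshold when only genes above the median level were tested (adjusted p = 0.0256). Its dimmer probe set, below the olfactory percentile, had a difference of 0.21 in the opposite direction (unadjusted p = 0.0481, adjusted p = 0.373 in the fit of all probe sets). PLXNC1 had levels of 6.92, 7.05 and 7.01 against 6.58, 6.78 and 6.97, a difference of -0.22 (adjusted p = 0.332), and all 4 of its probe sets had a difference below 0. S153E-RKIP replicate 1 was its lowest array, and without it the difference was -0.12 (adjusted p = 0.517). PLXNB1, the receptor of SEMA4D, differed by 0.10 (95% confidence interval -0.046 to 0.25).

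In PLXNA1, PLXND1 and NRP1, S153E-RKIP replicate 1 lay below the other arrays of its group. PLXNA1, a signalling partner of NRP1, read 9.15 there beside 9.98 and 9.83 in replicates 2 and 3, and NRP1 read 10.40 beside 10.98 and 10.78. PLXND1, a receptor of SEMA3E, read 7.87 beside 8.37 and 8.13. Replicate 1 lay 0.37 and 0.26 below the control mean for NRP1 and PLXND1, while the mean of replicates 2 and 3 lay 0.11 and 0.12 above it. For PLXNA1 it lay 0.61 below and the mean of the others 0.15 above. The 3 fitted differences were -0.11, -0.0081 and -0.048 for PLXNA1, PLXND1 and NRP1 (limma adjusted p = 0.832, 0.984 and 0.893). They average replicate 1 below the control mean with replicate 2 above it. Replicate 3 was close to the control mean for PLXND1 (8.13 beside 8.13) and NRP1 (10.78 beside 10.77). Control replicate 2 was the highest control for PLXNA1, PLXND1 and NRP1 (10.01, 8.32 and 10.89). The intervals of these 3 genes are the widest of the 70, that of PLXNA1 running from -0.57 to 0.36. Replicate 1 was the lowest of its group on all 4 probe sets of NRP1, by 0.16 to 0.48 against the mean of replicates 2 and 3. On the 2 dimmer probe sets of PLXND1, replicate 1 minus the mean of replicates 2 and 3 was 0.071 and -0.070. On those of PLXNA1 it was -0.16 and -0.069, beside -0.76 on the brightest, and their differences between the groups were 0.061 and 0.20 (unadjusted p = 0.392 and 0.0251), opposite in sign to the brightest.

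**Figure D4:**
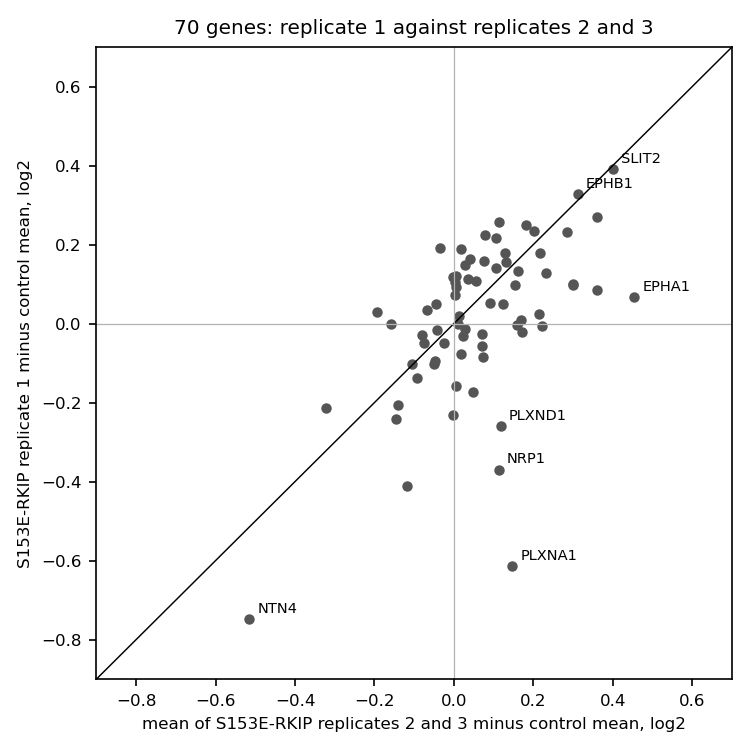
For each of the 70 genes, S153E-RKIP replicate 1 minus the control mean (vertical, log2) against the mean of replicates 2 and 3 minus the control mean (horizontal, log2), with the line of equality. SLIT2 and EPHB1 lie near the line, NTN4 is low on both axes (-0.75 and -0.52), and PLXNA1, NRP1, PLXND1 and EPHA1 lie more than 0.3 below it.

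EPHA1 was the fourth gene whose replicate 1 lay more than 0.3 from the mean of the other 2; such genes made 5.71% of the 70 and 6.5% of all genes. NRP2, the co-receptor of SEMA3F and of the lymphatic growth factor VEGFC, had a level of 6.23, 6.43 and 6.34 in control and of 6.46, 6.52 and 6.61 in S153E-RKIP, a difference of 0.20 (SE 0.070, adjusted p = 0.232) with groups that did not overlap. Of its 11 probe sets 10 had a difference above 0 and 5 an unadjusted p under 0.05, all of these higher by 0.20 to 0.28, and none was called. The 4 dimmer ones of these 5 had mean levels below the olfactory percentile.

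No ephrin was called. Of 8 ephrins 7 had a difference above 0 (87.5%, beside 53.6% of all genes). An unadjusted p under 0.05 was found for 3 (37.5%, beside 15.7% of all genes). The median difference of the ephrins was 0.15, beside 0.010 for all genes. Only 3 of the 8 lay above the median level, and of all genes below that level 68.9% had a difference above 0. The ephrins were not tested as a family. EFNB2, the ligand of EPHB4 on arterial endothelium and on tumour cells, had a level of 9.09, 9.08 and 9.06 in control and of 9.16, 9.43 and 9.45 in S153E-RKIP. The controls were nearly equal and all lay below the other group, in which replicate 1 was much the lowest. The difference was 0.27 (SE 0.082, limma adjusted p = 0.177), and without S153E-RKIP replicate 1 it was 0.36 and called (adjusted p = 0.0292). The dimmer probe set of EFNB2, at a mean level of 7.11, had overlapping groups. It differed by 0.14 (unadjusted p = 0.144 in the limma fit of all probe sets). EFNB1, another ligand of EphB receptors, read 5.74, 5.57 and 5.82 against 5.94, 6.07 and 5.92, a difference of 0.27 (SE 0.079, adjusted p = 0.163) at levels around the olfactory percentile. EFNA1, the ligand of EPHA2, differed by 0.20 (SE 0.086, adjusted p = 0.305), with control replicate 2 level with the lowest S153E-RKIP arrays. The others ran from -0.063 for EFNA5 to 0.15 for EFNA3.

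Of the 13 Eph receptors EPHB1 alone was called. EPHA2, the Eph receptor best known from aggressive breast cancer, was level across all arrays, at 10.73, 10.70 and 10.68 in control and 10.70, 10.70 and 10.72 in S153E-RKIP. Its difference was 0.0066 with a 95% confidence interval of -0.11 to 0.13. EPHB4, the receptor of EFNB2, differed by -0.064 (-0.25 to 0.12). EPHB3 read 6.84, 7.04 and 7.05 against 7.23, 7.27 and 7.05, with groups that barely part and a difference of 0.20 (SE 0.083, adjusted p = 0.294). Its dimmer probe set had one of -0.073, and the mean of both gave 0.065 (adjusted p = 0.678).

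EPHA1 had a level of 5.31, 5.41 and 5.31 in control and of 5.41, 5.77 and 5.83 in S153E-RKIP. Replicate 1 of the second group lay just above the highest control, and the difference was 0.32 (SE 0.11, limma adjusted p = 0.203). Without replicate 1 it was 0.45 and called (adjusted p = 0.0220), at levels below the olfactory percentile. The dimmer probe sets of EPHA1 differed by 0.13 and 0.12 (unadjusted p = 0.109 and 0.150 in the limma fit of all probe sets). On them replicate 1 minus the mean of replicates 2 and 3 was -0.070 and -0.0032, beside -0.39 on the brightest. EPHA4 differed by -0.025 on its brightest probe set, while 1 of its 4 dimmer ones, with a mean level of 5.82, had a difference of -0.46 (unadjusted p = 0.00276, adjusted p = 0.128 in the fit of all probe sets). That probe set read 6.19, 6.08 and 5.88 in control and 5.62, 5.40 and 5.76 in S153E-RKIP, and it was picked out after its value was seen. EPHB6 differed by 0.15 (adjusted p = 0.474). The remaining 6 EphA genes, 4 of them in the range of the olfactory receptor genes, ran from -0.11 for EPHA5 to 0.16 for EPHA6.

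Over all 174 probe sets of the 70 genes, 3 were called, or 1.72% beside 1.05% of all probe sets, and they were those of NTN4 and 2 of SLIT2. At an unadjusted p under 0.05 there were 33, or 19% beside 13.2%, of which 25 were higher and 8 lower. These 33 came from 24 genes, and probe sets of 1 gene are not independent. Among the 25 higher ones 3 were of SLIT2 and 5 of NRP2. The split by direction over all probe sets was not counted. Of 50 genes with more than 1 probe set, 22 had all of them on one side of 0. PLXNB2 and SEMA4D had probe sets past an unadjusted p under 0.05 in both directions, and SLIT2 and NRP2 were the only genes with at least 3 past it.

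**Figure D5:**
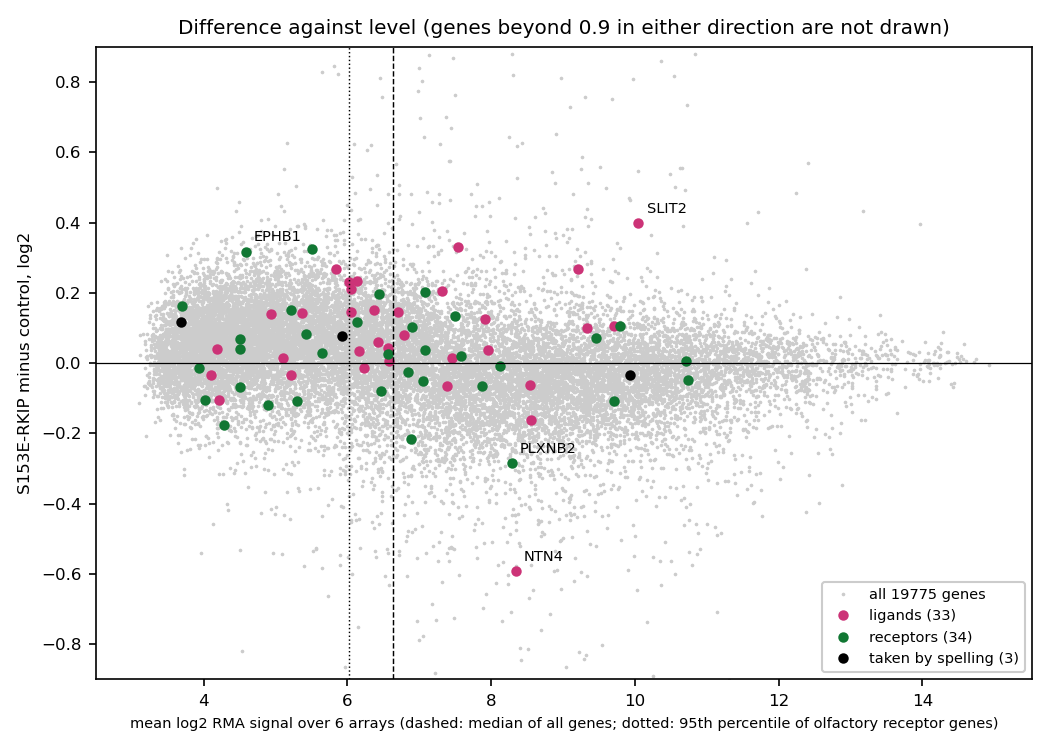
Difference (S153E-RKIP minus control, log2) against mean log2 RMA signal over the 6 arrays for all 19775 genes (grey; 64 beyond 0.9 in either direction are not drawn) and the 70 genes (ligands pink, receptors green, those taken by spelling black). Grey dots left of the dashed median of 6.64 lie mostly above 0, and NTN4, SLIT2 and PLXNB2 lie to its right.

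Dim genes as a whole had more positive differences on these arrays. Of all genes below the median level 68.9% had a difference above 0 (median 0.053), and of those above it 38.4% (median -0.029). Among the 70 genes it was 27 of 38 below the median level (71.1%, median 0.052) and 19 of 32 above it (59.4%, median 0.029). The olfactory receptor genes had a median difference of 0.088. The part of this shift in the differences of dim guidance genes was not tested. Of the 33 ligands 10 (30.3%) had an unadjusted p under 0.05 (8 higher, 2 lower) and 25 (75.8%) a difference above 0. Of the 34 receptors it was 5 (14.7%, with 4 higher and 1 lower) and 19 (55.9%). Of all genes 15.7% had such a p (7.75% higher, 7.92% lower) and 53.6% a difference above 0. The difference between ligands and receptors was not tested.

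Genes that act downstream of these receptors, or beside them as further cues, formed a list of 58, of which 54 were measured and 4 were not analysed here. None was called higher and 2 were called lower, or 3.7% of the list. Of all genes 1.9% were called in either direction and 1.21% lower. Above the median level, where 33 of the 54 lay, 3.07% of all genes were called in either direction. With any 1 of the 6 arrays dropped the count of the list called lower was 0.

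FLRT2, a membrane protein that binds UNC5 receptors and repels cells, read 9.33, 9.27 and 9.19 in control and 8.63, 8.92 and 8.93 in S153E-RKIP. Its difference was -0.43 (SE 0.088, limma adjusted p = 0.0531), and averaging its probe sets gave -0.48 and a call (adjusted p = 0.00318). DPYSL2, a collapsin response mediator that carries the SEMA3A signal, differed by -0.36 (SE 0.11, adjusted p = 0.165), with S153E-RKIP replicate 1 at 11.14 beside 11.53 and 11.49. Without that array it differed by -0.24 (adjusted p = 0.187). MET, the receptor kinase that associates with plexin-B receptors, differed by -0.18 and DPYSL3 by 0.17 (adjusted p = 0.223 and 0.251). The 54 genes had a median of -0.041, and 33 of them lay above the median level, where all genes had a median of -0.029.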

How the data were processed

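The deposited values are log2 signals, 1 per probe set and array, which the authors made with RMA (background correction, quantile normalisation across arrays and probe summary), per the submitters' processing notes. They were used as deposited. Of 54675 probe sets 62 are controls, 41091 have 1 symbol and were used, and the genes were fitted in limma 3.58.1 under R 4.3.3 (lmFit, eBayes without trend, two-sided, Benjamini-Hochberg over all genes) without a filter on dim genes. All 70 genes matched RefSeq by gene identifier. The number of arrays limits the precision: the median standard error of a difference over all genes was 0.072. Exactly equal values on at least 2 arrays occurred in 24 of the 70 genes. The code was also tested on simulated data. The genes, lists and tests were chosen with earlier results of these data known, and the olfactory guide after seeing the data. The named genes were those called, those at an unadjusted p under 0.05, the 5 largest rises and falls, those with a called probe set and 17 chosen by role, 27 in all, with up to 4 uncalled genes of the downstream list that had the smallest p; the 2 called genes of that list are not reported here by name. Others are named as examples of their family. Figures were drawn with matplotlib 3.10.9 and motifs were searched in the RefSeq promoter table (GRCh38.p14).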

Additional observations from a re-analysis of the deposited data

How the results depend on the processing

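Under 18 alternatives the named genes kept their direction in 560 of 577 values. NTN4 was called under 15 of 18, SLIT2 under 10 of 18 and EPHB1 under 2 of 16. All genes called numbered 237 without _x_at or _s_at probe sets, 600 with eBayes trend and robust estimation and 147 at an adjusted p under 0.01. The count of guidance genes called higher was 1 with the mean of all probe sets, without _x_at or _s_at probe sets, with either dim filter, after quantile normalisation again, after loess removal of the intensity trend and with eBayes trend and robust estimation; it was 0 with array weights, at 0.01 and with the replicate block. The count called lower was 2 with either dim filter and with eBayes trend and robust estimation, by the addition of PLXNB2. The count of downstream genes called lower was 0 after quantile normalisation again, after loess, at 0.01 and with the replicate block. The median difference of the guidance genes was 0.056 without _x_at or _s_at probe sets and 0.019 with equal array medians. Leaving out 1 array gave 124 to 303 genes called, 0 to 2 guidance genes higher and 0 to 1 lower, 0 downstream genes in either direction, and a median of 0.042 to 0.070.

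Values that turned direction were those of uncalled genes near 0, and of 3 genes read by another probe set when _x_at and _s_at ones were left out (EPHB1 -0.049, PLXNB2 0.21, DPYSL3 -0.16). With the mean of all probe sets NEO1 was -0.040 and PLXND1 0.010; PLXND1 was 0.040 after quantile normalisation, 0.030 after loess and 0.014 with array weights, and EPHA2 was -0.014 with equal medians. With 1 array left out PLXND1 ran from -0.13 to 0.12, NRP1 from -0.18 to 0.11, EPHA2 from -0.0053 to 0.019, NEO1 from -0.052 to 0.073 and EPHB4 from -0.12 to 0.014 (NRP1 0.010 and PLXND1 0.085 without control replicate 2, 0.11 and 0.12 without S153E-RKIP replicate 1). The cause was not tested. The labels do not say whether same-numbered arrays belong together. Their deviations correlated at 0.13, 0.26 and -0.044, which with 3 arrays in a group cannot settle it. With the replicate block 332 genes were called, NTN4 stayed called, and the limma adjusted p was 0.0587 for SLIT2 and 0.0654 for EPHB1. Without the 3 genes taken by spelling the counts were again 2 and 1.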
